A study of Mus musculus with 12 samples.

Results

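The synaptic vesicle recycling genes Amph, Synj1, Syn2 and Sv2c each contain annotated features on their opposite strand, inside their introns, and 7 such features are described here out of 55471 identifiers in the count tables. They are Gm47658, Gm47661 and Gm47660 opposite Amph, Gm15965 and Gm22933 opposite Synj1, Gm18325 opposite Syn2 and Gm17190 opposite Sv2c. The gene on the other strand is called the host. The members were chosen from their change after stimulation in these same libraries, by symbol and by host, so every value of that contrast is given as a description. Of 6088 measured features that lay in introns of exactly 1 opposite-strand host, these are 7.

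The tissue was cortex mixed with hippocampus, from C57BL6JL male adults 3 to 5 months old. Stimulated animals were given a 1 s current of 85 mA by ear clip, called maximal electroconvulsive stimulation (MECS), convulsed, and were sacrificed after 90 min. Naive animals were handled alongside them without the current. Homogenates of both were irradiated with ultraviolet light at 400 mJ/cm2, input RNA was set aside from the lysate, and the rest was precipitated with an antibody against U1-70K, which belongs to U1 snRNP, a small nuclear ribonucleoprotein. The 4 groups were MECS input, naive input, MECS U1 and naive U1, with 3 libraries each. No precipitate with a control antibody was analysed here, so higher in U1 than in input means only recovered more in the precipitate.

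Synaptic vesicles are refilled and reused after they fuse with the presynaptic membrane. Amphiphysin, the product of Amph, binds curved membrane and brings dynamin to the neck of the budding vesicle, and synaptojanin 1, the product of Synj1, is a phosphoinositide phosphatase whose action lets the clathrin coat come off. Synapsin II, encoded by Syn2, tethers vesicles in the reserve pool, and SV2C, encoded by Sv2c, is a glycoprotein of the vesicle membrane. U1 snRNP recognises splice donor sites and also protects long introns of nascent transcripts from premature cleavage and polyadenylation.

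Gene counts per library were 704432 to 1962312, the deepest being naive U1 2, and counts in genes were 1.42 to 1.84% of all listed reads. The library kit was strand-specific, but which strand the counting program used is not stated in the labels or notes. A value under a member's symbol is therefore that of the annotated feature, and RNA of the feature cannot be told apart from RNA of the host's intron. The same limit holds for every row read by its own symbol, the hosts, markers and vesicle genes included, which may hold RNA of the other strand. In bulk tissue, fewer cells of a type and less RNA per cell cannot be told apart either. All 10 listed neuron markers had counts under their own symbols, though not in every library. Counts per library were 0 to 8 for Gad2, 0 to 13 for Tubb3 and 34 to 211 for Camk2a. Their summed level was 283 to 429.5 CPM (counts scaled to a common library size) in MECS input and 289.7 to 495 in naive input. It was 110.2 to 166 in MECS U1 and 104.5 to 210.0 in naive U1. Read by host gene, 4 features of this list summed to 2385 to 2755 CPM in MECS input and 1948 to 2265 in naive input. The sums of these features were 2316 to 2605 CPM in MECS U1 and 1702 to 2295 in naive U1.

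The sequences below show what the counted features are made of, because the members fall into a kind with no close match in other annotated transcripts and a kind that shares its letters with many genes. Each run is from the GENCODE M21 transcripts of build GRCm38 (mm10), on the feature's own strand, from a window of the longest exon (all of it where shorter). Capitals mark bases that aligned with transcripts of at least 10 other genes in a BLAST search. Gm47658 is chr13:18972236-18972535 on the minus strand, Gm18325 is chr6:115159632-115159931 on the minus strand, Gm15965 is chr16:90986088-90986387 on the plus strand, Gm22933 is chr16:90953795-90953868 on the plus strand and Gm17190 is chr13:96082158-96082457 on the plus strand.
Gm47658: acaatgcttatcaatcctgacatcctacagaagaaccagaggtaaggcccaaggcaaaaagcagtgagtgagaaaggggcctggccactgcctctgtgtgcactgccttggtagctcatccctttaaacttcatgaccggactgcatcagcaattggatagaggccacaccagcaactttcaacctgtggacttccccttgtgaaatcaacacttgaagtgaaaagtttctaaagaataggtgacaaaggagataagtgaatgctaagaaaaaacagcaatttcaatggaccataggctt
Gm18325: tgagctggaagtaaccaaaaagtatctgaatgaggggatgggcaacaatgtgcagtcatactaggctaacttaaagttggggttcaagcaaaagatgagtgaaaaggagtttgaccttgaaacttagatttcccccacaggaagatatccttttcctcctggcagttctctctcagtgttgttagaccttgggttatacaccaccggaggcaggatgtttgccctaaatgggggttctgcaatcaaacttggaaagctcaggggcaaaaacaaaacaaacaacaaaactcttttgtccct
Gm15965: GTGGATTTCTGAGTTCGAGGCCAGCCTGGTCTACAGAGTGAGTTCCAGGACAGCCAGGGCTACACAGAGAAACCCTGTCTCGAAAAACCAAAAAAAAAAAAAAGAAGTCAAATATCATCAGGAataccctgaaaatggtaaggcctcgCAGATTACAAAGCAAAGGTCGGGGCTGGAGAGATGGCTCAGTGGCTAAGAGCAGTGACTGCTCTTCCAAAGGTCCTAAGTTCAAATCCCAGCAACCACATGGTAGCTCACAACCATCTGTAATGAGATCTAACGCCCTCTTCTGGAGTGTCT
Gm22933: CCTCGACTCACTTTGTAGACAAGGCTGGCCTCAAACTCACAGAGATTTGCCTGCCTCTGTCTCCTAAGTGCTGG
Gm17190: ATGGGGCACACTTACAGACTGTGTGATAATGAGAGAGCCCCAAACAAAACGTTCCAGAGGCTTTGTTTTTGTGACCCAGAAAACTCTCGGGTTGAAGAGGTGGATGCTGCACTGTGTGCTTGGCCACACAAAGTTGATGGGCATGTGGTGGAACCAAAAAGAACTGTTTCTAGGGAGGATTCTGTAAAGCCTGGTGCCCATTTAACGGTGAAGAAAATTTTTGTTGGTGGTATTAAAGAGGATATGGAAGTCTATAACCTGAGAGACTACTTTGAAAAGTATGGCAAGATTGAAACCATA
Gm47658 and Gm18325 show no capitals. In Gm15965, 275 of the 300 bases shown are capitals, in Gm22933 all 74, and in Gm17190 all 300.

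At a minimum of 80% identity over 60 bases, no other gene matched Gm47658, Gm47661, Gm47660 or Gm18325. The closest transcript to Gm47660, annotated as a processed pseudogene, was that of the ribosomal protein gene Rps7, with 74.4% identity over 316 bases. Gm18325, also a processed pseudogene, was closest to Tada1, which encodes an adaptor of a histone acetyltransferase complex, with 78.0% identity over 127 bases. Gm15965 matched 6286 genes and Gm22933 matched 2756, among them the microRNA gene Mir3470a with 89.2% identity over 74 bases. Gm17190 matched 46 genes and had 91.2% identity over 1111 bases with Hnrnpa3, which encodes an RNA-binding protein. Values of Gm15965, Gm22933 and Gm17190 are therefore uncertain, since no source here says how reads that match several places were counted. Of 5 members with a 300-base window, 1 (Gm17190) held the splice donor sequence GTAAGT on the host strand and 0 held it on their own strand. Among 4269 such windows of intron features the shares were 4.24% and 2.90%. The polyadenylation signal AATAAA occurred once on the feature strand in the shorter window of Gm47661, of 254 bases, and in 0 of the 5 windows of full length on either strand, against 9.67% of all windows on the host strand and 10.4% on the feature strand.

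Coordinates are those of GENCODE M21 on GRCm38. Amph lies on the plus strand (chr13:18948205-19150921) and holds the antisense genes Gm47658 (ENSMUSG00000113576, chr13:18971702-18974997) in intron 1 and Gm47661 (ENSMUSG00000114080, chr13:19029940-19057896) in introns 1 and 2. The third Amph member, Gm47660 (ENSMUSG00000113378, chr13:19071197-19071575), lies in intron 2. Synj1 lies on the minus strand (chr16:90936092-91011308), with the antisense gene Gm15965 (ENSMUSG00000085279, chr16:90983907-90987237) in intron 6 and Gm22933 (ENSMUSG00000093256, chr16:90953795-90953868), of microRNA type in the annotation, in intron 23. Syn2 lies on the plus strand (chr6:115134902-115282006) with Gm18325 (ENSMUSG00000107489, chr6:115159097-115159931) in intron 1. Sv2c lies on the minus strand (chr13:95954594-96132577) with Gm17190 (ENSMUSG00000099115, chr13:96082054-96083231) in intron 2. Intron numbers follow the host transcript with the longest coding sequence, and exon bases of the members run from 74 in Gm22933 to 1428 in Gm15965. Gm17190 is annotated as protein coding.

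**Figure D1:**
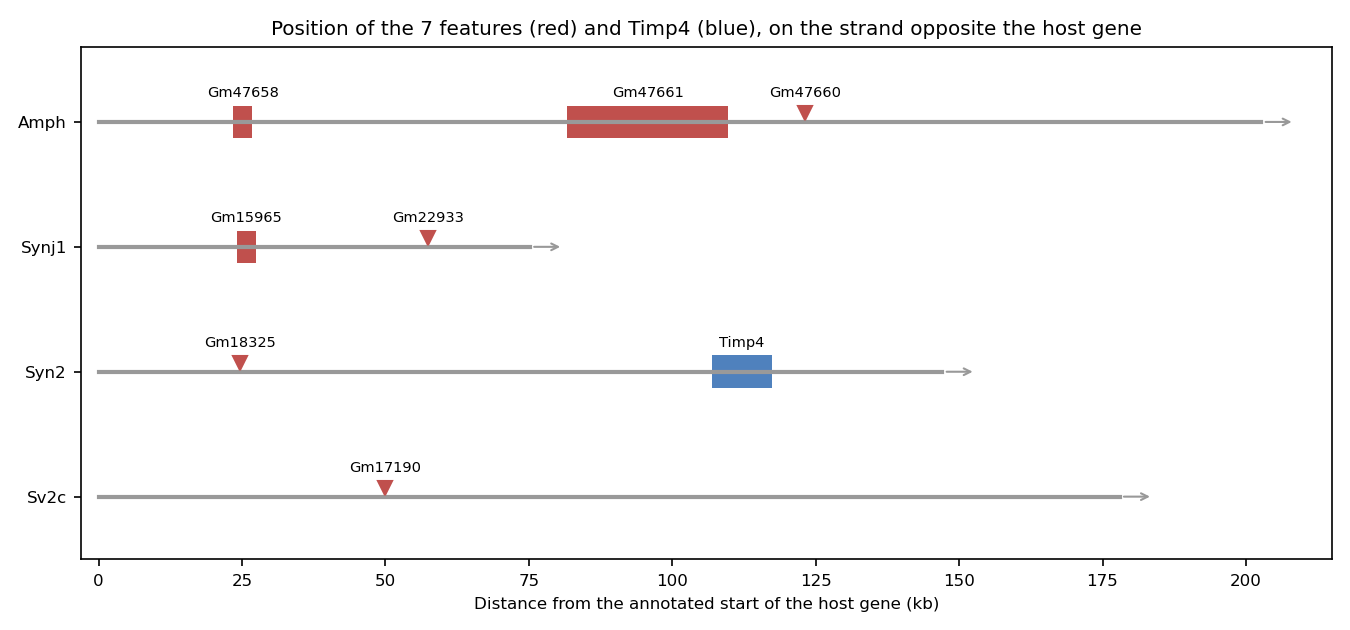
Position of the 7 features along their 4 host genes, in kb from the annotated start of the host, with grey lines for the hosts and arrows for their direction of transcription. Boxes are to scale (red for members, blue for Timp4), and red triangles mark the midpoint of members shorter than 2 kb. Gm47658, Gm15965 and Gm18325 lie 23.5 to 27.4 kb from the start of Amph, Synj1 and Syn2.

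Opposite Amph, all 3 features were higher after stimulation in input RNA and in the U1 precipitate. Gm47658 had 159, 100.2 and 151 CPM in MECS input, against 85.7, 75.1 and 72.4 CPM in naive input. In U1 RNA it had 168, 84.2 and 185 CPM in MECS brain, against 47.7, 76.4 and 36.15 CPM in naive brain. Neither pair of groups overlapped, although MECS animal 2 and naive U1 2 came close to each other in U1 RNA. The log2 fold change of Gm47658 was 0.79 (SE 0.19) in input RNA and 1.39 (SE 0.26) in U1 RNA.

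Gm47661 had 154, 79.6 and 141 CPM in MECS input, against 46.3, 50.6 and 57.3 CPM in naive input. In U1 RNA Gm47661 had 174, 81.9 and 166 CPM in MECS brain, against 39.2, 62.3 and 37.0 CPM in naive brain. Animal 2 was again the lowest stimulated one, and the groups did not overlap. The log2 fold changes of Gm47661 were 1.25 (SE 0.22) in input RNA and 1.54 (SE 0.25) in U1 RNA. Gm47660, the feature farthest into Amph, had 48.0, 30.4 and 41.4 CPM in MECS input, against 15.4, 14.4 and 14.3 CPM in naive input. In U1 RNA Gm47660 had 53.8, 33.7 and 47.7 CPM in MECS brain, against 14.7, 23.1 and 14.6 CPM in naive brain. Its lowest MECS library stood well above its highest naive library in input RNA, and less far above it in U1 RNA. The log2 fold changes of Gm47660 were 1.41 (SE 0.30) and 1.28 (SE 0.28).

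Opposite Synj1, Gm15965 had the smallest fold change of the 7 in both kinds of RNA, with little spread in naive input and more in naive U1. It had 281, 218 and 278 CPM in MECS input, against 172, 169 and 166 CPM in naive input. In U1 RNA Gm15965 had 276, 196 and 262 CPM in MECS brain, against 173, 159.8 and 126.5 CPM in naive brain. The groups did not overlap, and the log2 fold changes were 0.59 (SE 0.16) in input RNA and 0.66 (SE 0.17) in U1 RNA. Gm22933 had 22.9, 25.0 and 41.4 CPM in MECS input, against 11.1, 5.78 and 15.8 CPM in naive input, and its lowest library held 4 counts. In U1 RNA Gm22933 had 35.6, 26.02 and 48.4 CPM in MECS brain, against 14.7, 21.1 and 16.4 CPM in naive brain. The groups did not overlap here either, but the spread within each was wide for this short feature. Its log2 fold changes were 1.31 (SE 0.37) and 1.02 (SE 0.29).

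Opposite Syn2, Gm18325 carried the most counts of the 7, 3263 over the 12 libraries. It had 326, 192 and 252 CPM in MECS input, against 161, 163 and 158 CPM in naive input. In U1 RNA Gm18325 had 362, 187.5 and 334 CPM in MECS brain, against 133, 155 and 133 CPM in naive brain. The naive libraries lay close together, and MECS animal 2 was nearer to them than the other stimulated animals were. The log2 fold changes of Gm18325 were 0.65 (SE 0.17) in input RNA and 1.04 (SE 0.19) in U1 RNA.

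Opposite Sv2c, Gm17190 carried the fewest counts, 316 over the 12 libraries. It had 39.2, 23.2 and 39.5 CPM in MECS input, against 12.0, 8.67 and 11.3 CPM in naive input. In U1 RNA Gm17190 had 23.5, 23.0 and 33.5 CPM in MECS brain, against 8.57, 15.1 and 7.75 CPM in naive brain. The groups did not overlap in either kind of RNA. The log2 fold changes were 1.61 (SE 0.34), the largest of the 7 in input RNA, and 1.25 (SE 0.34) in U1 RNA.

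**Figure D2:**
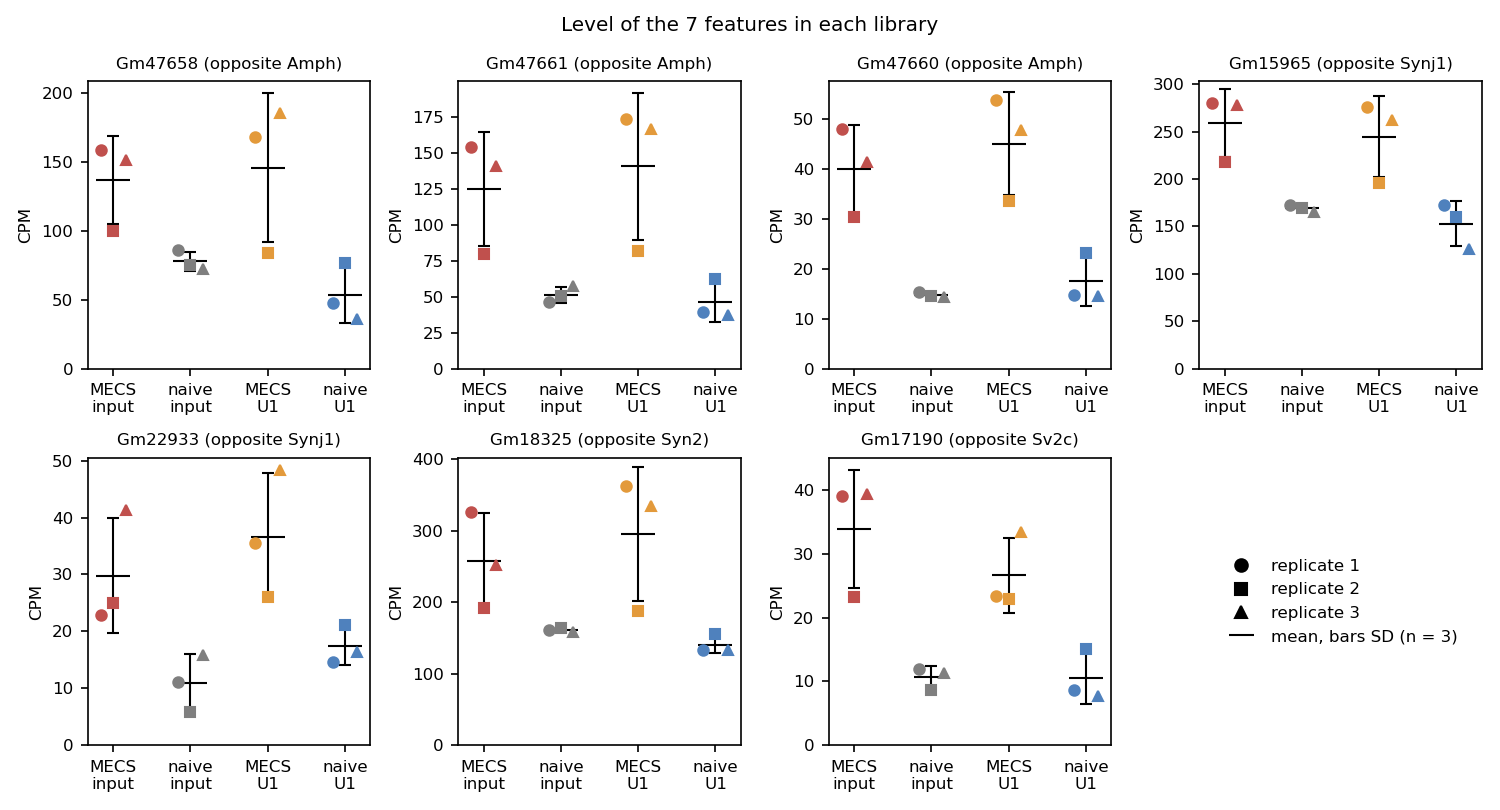
Level of each feature in CPM (linear axes from 0) in the 12 libraries, with MECS left of naive for input and then for U1 RNA. Points are libraries, horizontal lines the means and bars the SD (n = 3 each). For example, Gm47661 averaged 125 ± 39.6 CPM in MECS input and 51.4 ± 5.55 CPM in naive input, and in all 7 panels each MECS library stands above each naive library of the same kind of RNA.

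In input RNA 4 of the 7 features passed an adjusted p of 0.05 in the upward direction in edgeR's quasi-likelihood test over all features: Gm47658, Gm47661, Gm47660 and Gm17190. Over all 10402 features tested, 53 were called higher, 0.51%. In U1 RNA 4 of the 7 were called higher, Gm47658, Gm47661, Gm47660 and Gm18325, beside 37 of 11141 features, 0.332%. All 7 had every MECS library above every naive library in both kinds of RNA, an order found for 8.93% of features tested in input RNA and 9.06% in U1 RNA. Since the members were chosen from this contrast, nothing is read from these counts. The median log2 fold change of the 7 was 1.25 in input RNA, with 0.07 for the other 2765 intron features tested and -0.02 for all features. In U1 RNA it was 1.25 for the 7, 0.08 for the other 2998 intron features and -0.02 for all features.

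Most calls did not hold with each library left out, at fewer samples. The fold changes stayed above 0, a sign that the choice of the members on this contrast all but fixed. Gm47661 was called in input RNA with any 1 of the 6 libraries left out, at a log2 fold change of 1.09 to 1.51, and in U1 RNA in 5 of 6 cases, at 1.38 to 1.88. Gm47660 in input RNA was called in 1 of 6 cases, at 1.28 to 1.60, and Gm18325 in U1 RNA in 4 of 6, at 0.88 to 1.30. In input RNA leaving out naive input 1, naive input 2, naive input 3 or MECS input 3 left 1 of the members called, leaving out MECS input 1 left 2, and leaving out MECS input 2 gave 6. In U1 RNA leaving out naive U1 1 left 0 of them, leaving out naive U1 3 left 2, leaving out MECS U1 1 left 1, and leaving out MECS U1 2 gave 6. MECS animal 2 was the lowest stimulated library in input RNA for 6 of the 7 members, the exception being Gm22933, and in U1 RNA for all 7. Naive U1 2, the deepest library, was the highest naive precipitate for 6 of the 7, the exception being Gm15965. The part of that depth in its values was not tested.

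**Figure D3:**
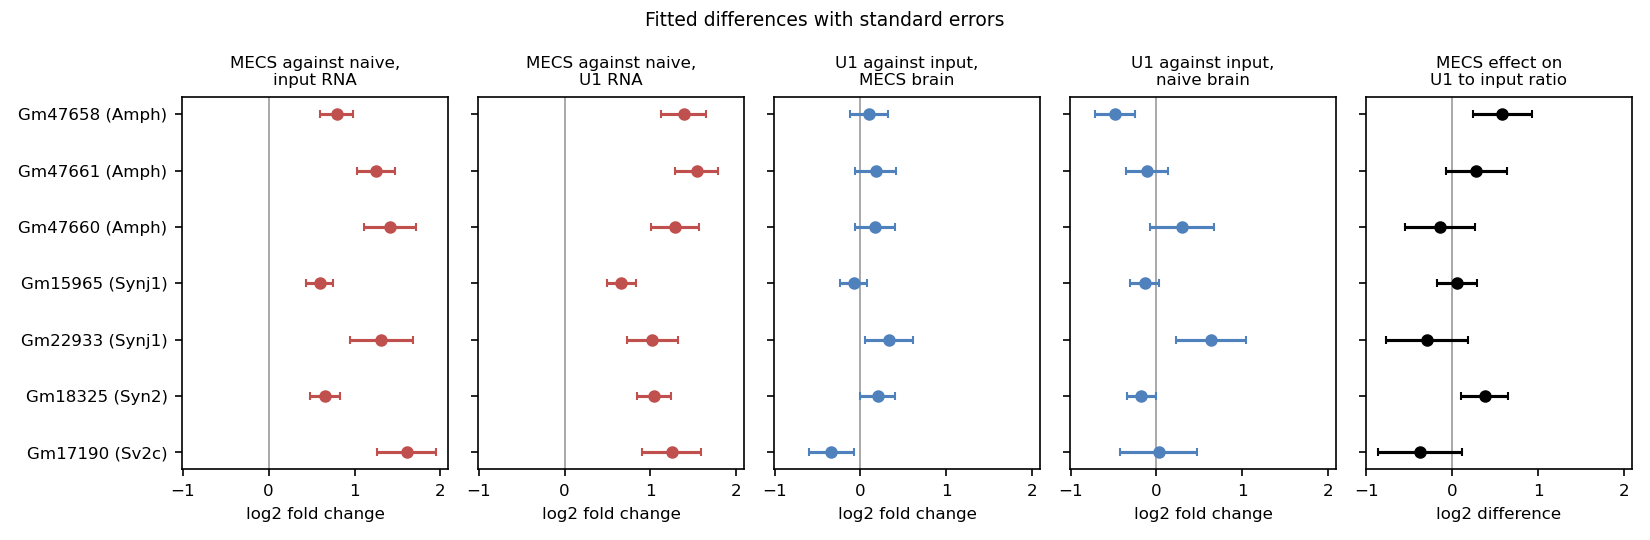
Log2 fold changes of the 7 features in 5 comparisons, with bars of 1 SE from edgeR's fits. Red marks MECS over naive (input, then U1 RNA), blue U1 over input (MECS, then naive brain) and black how MECS changed the U1 to input ratio. The red values run from 0.59 to 1.61, and the blue values lie on both sides of 0, from -0.49 to 0.63.

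U1 against input RNA did not choose the members, and it asked whether the precipitate held more or less of them than the lysate did. In MECS brain 0 of the 7 passed the test, beside 8.51% of features called in either direction (918 of 10791). In naive brain 0 of the 7 passed, beside 10.5% (1141 of 10918). At an unadjusted p under 0.05 there were 0 in MECS brain and 1 in naive brain, Gm47658, and DESeq2 called 0 in both. With library size scaling the calls over all features in naive brain were 565 higher and 562 lower, where TMM scaling gave 458 and 683. With the animal as a block 1488 features were called in MECS brain, again with 0 of the 7 among them.

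Gm47658 had U1 to input ratios of 1.06, 0.840 and 1.23 in the 3 MECS animals, against 0.557, 1.02 and 0.4995 in the 3 naive animals. Its log2 difference of U1 from input was 0.10 (SE 0.22) in MECS brain, with adjusted p = 0.868 in edgeR's quasi-likelihood test, and -0.49 (SE 0.23) in naive brain, with adjusted p = 0.225. Without naive U1 2 the value in naive brain was -0.90, with adjusted p = 0.0131, the only setting run in which a member was called in this comparison, and without naive U1 3 it was -0.28, with adjusted p = 0.614 (edgeR). Gm18325 had ratios of 1.11, 0.975 and 1.32 in MECS animals, against 0.828, 0.948 and 0.843 in naive animals. In naive brain each of its U1 libraries was below each of its input libraries, but the difference of -0.17 (SE 0.17) did not pass (edgeR adjusted p = 0.6298), nor did 0.20 (SE 0.20) in MECS brain (edgeR adjusted p = 0.655). Of the 7 members 1 lacked overlap in naive brain. The share over all features was not counted for this comparison, so nothing is read from that order.

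At Synj1, Gm15965 had ratios of 0.982, 0.898 and 0.942 in MECS animals, against 1.00, 0.946 and 0.763 in naive animals. Gm22933 had 1.55, 1.04 and 1.17 in MECS animals, against 1.32, 3.65 and 1.03 in naive animals, where the high value of naive animal 2 came over 4 input counts. The U1 over input differences of Gm22933 were 0.33 (SE 0.28) in MECS brain and 0.63 (SE 0.41) in naive brain, with edgeR adjusted p = 0.569 and 0.411. Those of Gm15965, Gm47661, Gm47660 and Gm17190 lay between -0.34 and 0.18 in MECS brain and between -0.13 and 0.30 in naive brain, with edgeR adjusted p from 0.541 to 0.8398 and from 0.726 to 0.9845. The median of the 7 was 0.17 in MECS brain and -0.11 in naive brain, beside 0.11 and 0.10 for other intron features and 0.02 and 0.03 for all features. These SEs leave room for differences in either direction, so the 7 were not shown to be recovered alike.

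The precipitates also differed from input in other cells' features. For the smooth muscle and pericyte list read by host gene, 5 features of 9 listed genes summed to 1362 to 2085 CPM in MECS U1 and 301 to 432 CPM in MECS input. They summed to 1470 to 2597 CPM in naive U1 and 257 to 434 CPM in naive input, and 5 of 5 were called higher with U1 in both states. By own symbol, 3 of 7 markers of that list tested were called higher in naive brain and 1 of 6 in MECS brain. Of 8 neuron markers tested by own symbol, 3 were called lower with U1 in each state. By host gene, 1 of 4 neuron features was lower in each state and 1 of 4 higher in naive brain. Of astrocyte features, 2 of 5 by own symbol and 2 of 2 by host gene were lower in each state. Of oligodendrocyte features, 3 of 7 by own symbol and 0 of 2 by host gene were lower in each state. Of 5 blood markers 4 were at 0 in every library. In MECS against naive, 1 of 7 oligodendrocyte markers tested by own symbol was called higher in input RNA, and 0 of the features of the other lists were called in either kind of RNA. The part of cell makeup in the members' ratios was not tested.

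The change of the ratio itself, U1 over input in MECS brain minus the same in naive brain, was built from the values that chose the members and is a description. It was largest for Gm47658 at 0.58 (SE 0.34) and Gm18325 at 0.38 (SE 0.27), and lowest for Gm17190 at -0.38 (SE 0.49) and Gm22933 at -0.30 (SE 0.48). Over all 12184 features tested 0 were called, 0%, with 383 at an unadjusted p under 0.05. Of the 7 members 0 were called, 0 were at an unadjusted p under 0.05, and DESeq2 called 0.

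Proportions between features of the same host were compared as a description, with no test, since they come from the values that chose the members. For each count of Gm47658, the feature nearest the start of Amph, there were 0.302, 0.304 and 0.274 counts of Gm47660 in MECS input, against 0.18, 0.192 and 0.198 in naive input. For Gm47661 the proportions to Gm47658 were 0.967, 0.795 and 0.930 in MECS input, against 0.54, 0.673 and 0.792 in naive input. Neither set overlapped, but the nearest values of the Gm47661 proportion, 0.795 and 0.792, all but touched. The naive input proportions of Gm47660 rest on only 18, 10 and 19 of its counts. The proportion of Gm47660 to Gm47661 overlapped, at 0.3125, 0.382 and 0.2945 in MECS input, against 0.333, 0.286 and 0.25 in naive input. In U1 RNA both proportions to Gm47658 overlapped: Gm47660 to Gm47658 was 0.3198, 0.4 and 0.2575 in MECS brain, against 0.308, 0.303 and 0.405 in naive brain. The proportion of Gm22933, deeper in Synj1, to Gm15965 was 0.0816, 0.115 and 0.149 in MECS input, against 0.0647, 0.0342 and 0.0955 in naive input, with overlap. Its value of 0.0342 rests on 4 counts of Gm22933. Across the 7 features the Pearson correlation of the MECS log2 fold change with distance from the host start was 0.675 in input RNA and 0.515 in U1 RNA. Features of 1 host lie within the span of the same gene and all share the libraries, so this is a description over 7 points. Gm47658, Gm15965 and Gm18325, the nearest to a host start, also held the most counts over the 12 libraries, 1596 to 3263. The farther members held 316 to 1411, among them Gm22933 and Gm17190 with uncertain values. Distance and abundance therefore cannot be told apart here.

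**Figure D4:**
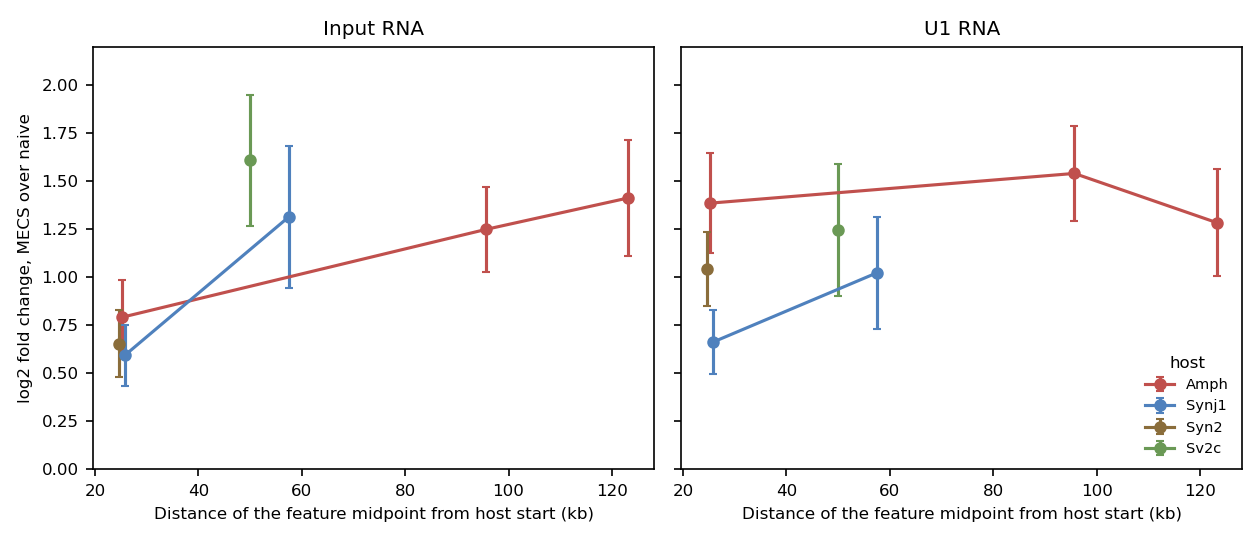
Log2 fold change of MECS over naive (bars 1 SE) against the distance of the feature's midpoint from the annotated start of its host, in kb, in input RNA (left) and U1 RNA (right). Lines join features of the same host. In input RNA the 3 features nearest a start lie at 0.59 to 0.79 and the 4 farther ones at 1.25 to 1.61, while in U1 RNA Gm47658 near the Amph start lies at 1.39. The 3 nearest also held the most counts, so distance cannot be told apart from abundance.

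Summed over the 12 libraries, the members had counts per kb of exon of 268 to 5027, where the median of 6088 intron features was 155.8. On the scale of mean CPM per exon kb, Gm22933 had 320.1, Gm47658 had 263 and Gm18325 had 255. Gm15965 followed with 145, then Gm47661 with 87.8, Gm47660 with 77.3 and Gm17190 with 17.35. The host genes' own rows were almost empty. Amph had 0 to 9 counts per library, Synj1 0 to 8, Sv2c 0 to 3 and Syn2 5 to 20. Of these 4 rows the test's filter passed Syn2 alone, at 16.2 ± 3.20 CPM in MECS input and 16.6 ± 8.14 CPM in naive input (SD, n = 3 each). The 5 features annotated inside the hosts on the host's own strand had 10 counts in all over the 12 libraries.

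Of other genes on the opposite strand, 1 lies inside these hosts and 1 at an edge. Timp4, which encodes an inhibitor of matrix metalloproteinases, lies inside Syn2 (chr6:115241892-115252205). It had 1717, 1231 and 1388 CPM in MECS input, against 1057, 988 and 965 CPM in naive input, and 1665, 1051 and 1456 CPM in MECS U1, against 956, 915 and 732 CPM in naive U1. The groups did not overlap, with log2 fold changes of 0.50 (SE 0.15) and 0.66 (SE 0.16), and neither passed over all features. 4930404I05Rik, which crosses the start of Synj1 (chr16:91011249-91016743), had 0.22 (SE 0.15) in input RNA and 0.56 (SE 0.14) in U1 RNA and was not called.

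Over the 12 libraries the Pearson correlation of log2 CPM between members was 0.66 to 0.97 in 21 pairs, with a median of 0.91. It holds the difference between MECS and naive libraries on which the members were chosen, so positive values were largely fixed by that choice. Variation within groups was not measured apart from this difference, for these pairs or for the features named next. Among 15632 features, those close to Gm47658 included Gm14377 opposite the phosphatase gene Ptpn5 (r = 0.97) and 8430429K09Rik (r = 0.95). The closest to Gm15965 were Timp4 (r = 0.98), Tmed10-ps (r = 0.96) and A430028G04Rik opposite the phosphatase gene Ppm1h (r = 0.95). The closest to Gm18325 were A430028G04Rik (r = 0.96), its neighbour Timp4 (r = 0.95) and Ppt1 (r = 0.94), a lysosomal thioesterase gene. The closest to Gm17190 were Sorbs2os opposite Sorbs2 (r = 0.96), Gm37048 opposite the histone deacetylase gene Hdac4 (r = 0.93) and the kinase gene Rps6kb1 (r = 0.93).

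Other genes of the vesicle cycle, 131 in all including these hosts, were read by their own symbols and as hosts of opposite-strand features of any class (intron, exon or mixed). By own symbols, 0 of 68 tested were called in MECS against naive input and 0 of 69 in U1 RNA. As hosts, with the 7 members left out, they had 50 features of 37 genes tested in input RNA, of which 2 were higher and 0 lower, with a median of 0.10. In U1 RNA 52 features of 39 genes had a median of 0.17, with 1 higher and 0 lower. Over all features 53 of 10402 were higher in input RNA and 37 of 11141 in U1 RNA, with medians of -0.02 in both. Medians of other intron features were 0.07 and 0.08, and nothing particular to vesicle genes is read from these values. The called vesicle features in input RNA, named after their values were seen, were Gm24858 and Gm12413. Gm24858 lies in Sv2b, the gene of a vesicle glycoprotein related to SV2C, and Gm12413 in Sh3gl2, the gene of endophilin A1. Gm24858 averaged 101 ± 29.2 CPM in MECS input and 48.9 ± 17.8 CPM in naive input (SD, n = 3 each), a log2 fold change of 0.99 (SE 0.24). Gm12413 averaged 123 ± 27.4 CPM in MECS input and 67.2 ± 11.03 CPM in naive input (SD, n = 3 each), a log2 fold change of 0.84 (SE 0.20). In U1 RNA it was Serpind1, in Pi4ka, the gene of a phosphatidylinositol kinase, with 409 ± 103 CPM in MECS brain and 222 ± 26.4 CPM in naive brain (SD, n = 3 each).

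In U1 against input, vesicle genes are given beside all features, of which 562 of 10791 were lower and 356 higher in MECS brain, and 683 of 10918 lower and 458 higher in naive brain. The vesicle genes' shares lie near these, and nothing particular to them is read from the counts. As hosts in MECS brain, 0 of 51 features were called higher and 4 lower, and in naive brain 1 of 49 was higher and 4 lower. The 4 were the same features: Gm14703 opposite the synaptophysin gene Syp (-2.22 in MECS and -2.47 in naive brain), Gm14205 opposite the vesicular GABA transporter gene Slc32a1 (-1.78 and -2.32), and Gm26954 (-1.19 and -1.57) and Gm26918 (-0.84 and -0.89) opposite the active zone gene Pclo. By own symbols, 1 of 71 was higher and 6 lower in MECS brain, and 1 of 72 higher and 4 lower in naive brain. Ppp3cc, a calcineurin subunit gene, was the higher one, at 1.68 and 1.86, and Bsn, an active zone gene, was lower at -1.68 and -1.70. The vesicular glutamate transporter gene Slc17a7 (-1.64 and -1.47) and the row named Pclo (-1.20 and -1.04) were also lower in both states. Cplx1, Epn1 and Rph3a, which encode a complexin, an epsin and rabphilin, were lower in MECS brain at -2.38, -2.16 and -1.42. Levels were low for Cplx1, at 3.73 CPM in MECS U1 and 19.8 in MECS input, and for Epn1, at 3.84 and 18.3. The kinase gene Bmp2k was lower in naive brain at -0.64. AC166350.1 opposite Ston1, an endocytic adaptor gene, was the 1 host feature higher in naive brain, at 1.54. This intron feature was also low, at 15.3 CPM in naive U1 and 5.01 in naive input. Whether these differences between the states exceed error was not tested beyond the 0 calls above for the change of the ratio.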

How the data were processed

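Each library has 1 table of raw counts that the authors deposited, whole numbers by Ensembl gene identifier. The genome build was mm10 and the tools were DESeq2, Salmon 1.4, StringTie 2.1.3, HISAT2 2.2.0, Trimmomatic 0.39 and FastQC, per the submitters' processing notes, in which no tool has a stated role. The program that counted reads and its strand option are not given in the sources used. Per the labels' protocols, libraries were strand-specific total RNA depleted of ribosomal RNA, with single-end reads of 100 bp. Of 55471 identifiers 55144 matched GENCODE M21, and 327 did not. The 5 closing rows of each table name no gene and entered neither library sizes nor tests. They included reads assigned to no annotated feature, 88.3 to 91.3% of the 42467790 to 129874136 reads listed per library. With the strand option unknown, such reads need not lie outside genes.

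A host is the 1 opposite-strand gene that holds at least 50% of a feature's exon bases, with at most 10% in any other, and an intron feature has at least 80% of that overlap in introns. Groups were compared over all features with edgeR 4.0.16 in R 4.3.3 (quasi-likelihood, TMM, default filterByExpr, Benjamini-Hochberg at 0.05), tested on simulated data. SEs were computed as the log2 fold change over the square root of F. CPM use TMM factors of the 12 libraries, and likeness used log2 CPM (prior count 2) of features whose mean was at least 2. BLAST 2.17.0 searched GENCODE transcripts at an e-value of at most 1e-05. Alternatives were RLE or library size scaling, no filter, DESeq2 1.42.0, 1 fit of all 12 libraries, leaving out libraries in turn and a replicate block. The named features were the 7, the hosts' rows, other features inside the hosts, vesicle genes called in U1 against input (up to 6 in each direction) and the 3 features most like the highest-count member of each host, of which 1 is not reported here.

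The members and lists were chosen with earlier results of these data known. Title prefixes pair each U1 library with the input of the same animal. Deviations from group means correlated at 0.11, 0.22 and 0.12 between paired MECS libraries and at 0.02, -0.1 and -0.02 between paired naive libraries. No label says how animals were spread over cages or days, and p-values measure the spread between these samples only.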

Additional observations from a re-analysis of the deposited data

How the results depend on the processing

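The log2 fold change of MECS over naive was above 0 in all 84 alternative values of the 7 features in input RNA (0.47 to 1.84) and in all 84 in U1 RNA (0.56 to 1.88). The members were chosen on this contrast and their MECS and naive libraries did not overlap. The sign was therefore all but fixed in advance, and nothing is read from it. Differences of U1 from input were above 0 in 57 of 84 values in MECS brain and 32 of 84 in naive brain, and the MECS effect on that ratio in 69 of 119.

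Features called in MECS against naive input numbered 63, against 111 without a filter, 129 with library size scaling, and 19 to 114 with 1 library left out. Members called there numbered 4, against 7 with library size scaling, 6 without a filter, 3 with all 12 libraries in 1 fit and 1 to 6 with 1 library left out. DESeq2 called 3, Gm47658, Gm47661 and Gm15965, and gave no adjusted p for Gm47660 and Gm17190. In U1 RNA 43 features were called, against 151 without a filter, 86 by DESeq2, 88 with all 12 libraries in 1 fit and 13 to 225 with 1 library left out. Members called there numbered 4, against 5 without a filter, 5 with all 12 libraries in 1 fit and 0 to 6 with 1 library left out. Of the members DESeq2 called 3 in U1 RNA, Gm47661, Gm15965 and Gm18325. U1 against input called 1141 features in naive brain and 711 to 1254 with 1 library left out, with 0 members and 0 to 1. In MECS brain it called 918, and 613 to 894 with 1 library left out. The MECS effect on the ratio called 0 features, 1 without a filter, 1 with library size scaling and 0 to 1 with 1 library left out. The cause of these changes was not tested.

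MECS and naive libraries share only a replicate number. Their same-numbered deviations correlated at 0.07, -0.03 and 0 in input RNA and at 0.01, -0.01 and -0.1 in U1 RNA. With the replicate block 142 features and 7 members were called in input RNA, and 35 features and 3 members in U1 RNA. With the animal as a block 1488 features (647 higher, 841 lower) were called for U1 against input in MECS brain, and 1 feature for the MECS effect on the ratio. The block brought no member past the threshold in U1 against input.

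Depth limits the shortest and rarest members most: Gm22933 had as few as 4 counts in a library and Gm17190 as few as 6. Without naive U1 2, the log2 fold change of Gm17190 in U1 RNA was 1.71.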
